A study of Rattus norvegicus with 6 samples.

Results

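The genes described here are 8 transcripts that mark macrophages, Adgre1, Csf1r, Cd68, Cd163, Mrc1, C1qa, C1qb and Cd14, together with the lipoxygenase gene Alox15, in Achilles tendons of week-old and newborn rats. They are 9 of the 14217 genes that had a probe set of their own on an Affymetrix rat expression array. The list was drawn up by name with earlier results of these data known. Within it Alox15 and Adgre1 were selected on these same intensities, because both read higher on day 7. Their difference between the ages is therefore given as a description, without a test. Tendons were taken on post-natal day 7 (3 arrays) and on post-natal day 1 (3 arrays), and the labels name age as the difference between the groups and give no strain, sex or treatment. Each array carried RNA of a pool of 2 or more animals, so the error measures the spread between pools, which may be partly technical. The tendons were dissected under a microscope straight into lysis reagent, and the labels describe no sorting of cells. In RNA of such bulk tissue, fewer cells of a type and less RNA per cell cannot be told apart.

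Macrophages are phagocytes that settle in nearly every tissue before and around birth and are renewed there or from blood monocytes. Their survival depends on the receptor encoded by Csf1r, which binds the growth factors CSF1 and IL34. Through scavenger receptors, lectins and complement they take up dead cells, haemoglobin and matrix fragments, and the lipoxygenase encoded by Alox15 adds oxygen to unsaturated fatty acids, from which lipid mediators are made. In rodents Alox15 is a product of some resident macrophages, and the enzyme is also known from rabbit reticulocytes and from eosinophils.

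Each of the 9 genes had 1 probe set that named it alone, so none had another probe set as a check. The median intensity over all probe sets was between 20.5 and 21.1 on each array. The probe sets for bacterial trp, which match no rat transcript, read between 3.74 and 4.76. The lowest value of any of the 9 genes was 16.3, for Adgre1 on a day 1 array, so all were measured above that background. The pan-leukocyte gene Ptprc and the integrin Itgam, both carried by macrophages, read low, between 7.18 and 13.4 over the 6 arrays.

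Windows upstream of the genes are shown for Adgre1, the macrophage gene that read higher on day 7, for Cd68, which was nearly level, and for C1qb and Cd163, which read lower. They are RefSeq sequence of the rat assembly GRCr8, run 5′ to 3′ from 250 bases before to 50 bases after the annotated start, and are printed with the letters GAGGAA, the core of a purine box of the macrophage factor PU.1, in capitals on either strand (TTCCTC where it lies on the other strand).
Adgre1, chr9:2329190-2329489, plus strand: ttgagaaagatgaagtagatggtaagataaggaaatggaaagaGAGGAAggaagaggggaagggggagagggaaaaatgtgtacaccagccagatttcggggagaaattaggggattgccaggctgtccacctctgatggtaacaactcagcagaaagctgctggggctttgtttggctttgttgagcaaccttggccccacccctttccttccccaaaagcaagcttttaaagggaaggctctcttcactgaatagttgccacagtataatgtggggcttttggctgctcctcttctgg
Cd68, chr10:54882392-54882691, minus strand: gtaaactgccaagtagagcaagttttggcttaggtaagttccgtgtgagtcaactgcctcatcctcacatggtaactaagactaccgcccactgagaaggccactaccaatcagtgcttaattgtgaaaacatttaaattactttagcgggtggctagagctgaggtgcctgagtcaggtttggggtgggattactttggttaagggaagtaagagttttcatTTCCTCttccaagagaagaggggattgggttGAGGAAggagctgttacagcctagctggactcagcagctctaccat
C1qb, chr5:154407778-154408077, minus strand: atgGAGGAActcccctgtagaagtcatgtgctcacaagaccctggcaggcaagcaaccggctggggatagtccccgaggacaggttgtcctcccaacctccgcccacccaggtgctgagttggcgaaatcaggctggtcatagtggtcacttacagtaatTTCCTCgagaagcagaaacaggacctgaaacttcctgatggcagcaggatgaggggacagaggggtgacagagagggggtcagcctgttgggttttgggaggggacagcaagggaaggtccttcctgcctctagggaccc
Cd163, chr4:158770524-158770823, plus strand: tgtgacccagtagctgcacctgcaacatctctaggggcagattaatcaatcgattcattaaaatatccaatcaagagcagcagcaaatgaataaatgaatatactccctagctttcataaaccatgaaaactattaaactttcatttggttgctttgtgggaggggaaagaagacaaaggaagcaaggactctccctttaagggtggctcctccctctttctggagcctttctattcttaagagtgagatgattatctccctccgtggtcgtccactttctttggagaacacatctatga
The sequence table held such a window for 8 of the 9 genes, Alox15 being the other. GAGGAA on either strand was present in 6 of the 8, and in 27.6% of 33469 windows of the same length. The longer GAGGAAGT, which contains it, was in 0 of the 8 and in 2.42% of all windows. The AP-1 letters TGAGTCA were in 1 of the 8, that of Cd68, and in 4.63% of all. The C1qb window above held GAGGAA at 2 places and the Cd163 window held none. In the annotation C1qb, C1qc and C1qa are consecutive protein-coding genes of chromosome 5. Alox15 and Cd68 lie on chromosome 10, with the lipoxygenase gene Alox12e next to Alox15.

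Alox15 read higher on every day 7 array. Its intensity was 533, 2035 and 1808 on day 7 (replicates 1, 2 and 3), against 278, 60.0 and 199 on day 1. The groups did not overlap, but day 7 replicate 1 lay far below the other day 7 arrays, and day 1 replicate 2 far below the other day 1 arrays. The mean was 1458 ± 810 on day 7 and 179 ± 110 on day 1 (SD, n = 3 each), with a coefficient of variation of 55.5% on day 7 and 61.7% on day 1. On the log2(intensity + 1) scale the difference was 3.06, or 8.33-fold. It was 2.06 without both arrays numbered 2 and 3.67 without day 7 replicate 1.

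Adgre1 encodes the adhesion receptor whose mouse form is the classical surface marker of mature macrophages. It read 48.0, 33.1 and 48.1 on day 7, against 16.3, 18.1 and 20.2 on day 1. The lowest day 7 array, replicate 2, still lay above the highest day 1 array. The mean was 43.1 ± 8.64 on day 7 and 18.2 ± 1.97 on day 1 (SD, n = 3 each), a 2.27-fold difference (log2 1.18, and 0.78 with a pseudocount of 16). Of all genes, 1.15% were at least 2-fold higher on day 7, and 14.0% had all day 7 arrays above all day 1 arrays. Since Alox15 and Adgre1 were picked for this, nothing is read from these shares. The arrays that were low differed between them: within day 7, Alox15 was lowest on replicate 1 and Adgre1 on replicate 2.

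**Figure D1:**
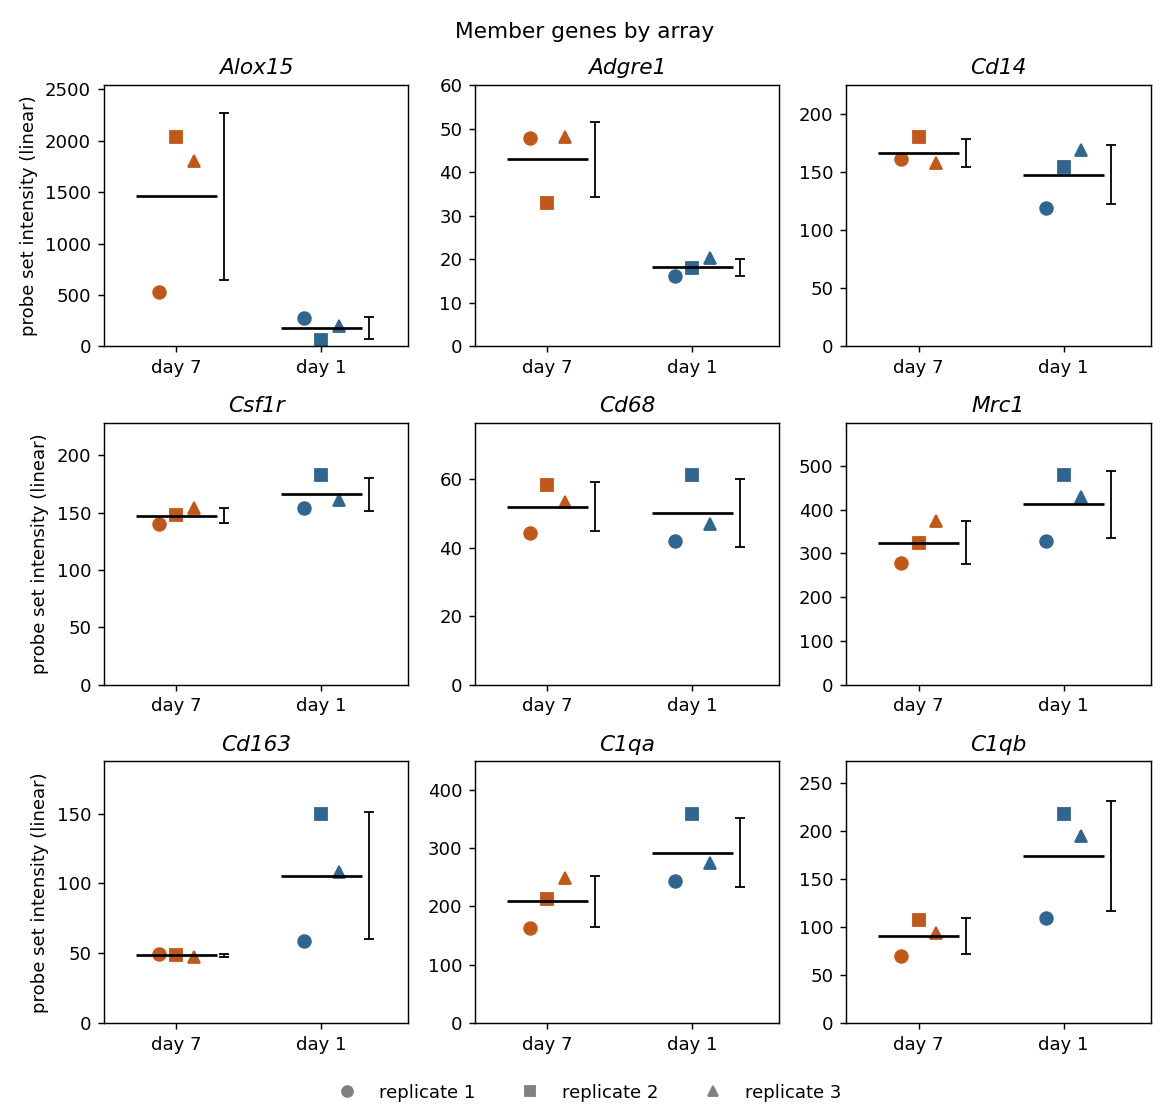
Probe set intensity (linear axis from 0) of the 9 genes on the day 7 arrays (left, orange) and the day 1 arrays (right, blue), with 1 point per array, its shape giving the replicate number, a line at the mean and a bar of 1 SD. Alox15 and Adgre1 stand higher on all day 7 arrays, Cd163 and C1qb lower, and the other 5 genes overlap.

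None of the other 7 genes was called different between the ages. In limma's test, adjusted by Benjamini-Hochberg across the 31042 probe sets, 0 of the 7 passed an adjusted p under 0.05. Of all genes, 5.08% passed, 1.93% as higher and 3.15% as lower. The higher ones made up 38.0% of the calls without further normalization, and 52.4% once the arrays were quantile normalized. At an unadjusted p under 0.05 there were 3 of the 7, Cd163, C1qa and C1qb, each lower on day 7, against 27.6% of all genes in either direction. The median log2 change of the 7 was -0.33, beside -0.01 over all genes, and 5 of the 7 had a change below 0.

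Csf1r, the growth factor receptor, read 140, 148 and 154 on day 7, against 154, 182 and 161 on day 1. The arrays overlapped and varied little, with a log2 change of -0.17 (unadjusted 95% interval -0.42 to 0.09; limma adjusted p = 0.424). Cd68, a glycoprotein of lysosomes in phagocytes, read 44.3, 58.2 and 53.4 on day 7, against 42.0, 61.0 and 47.0 on day 1. Its log2 change was 0.06 (interval -0.32 to 0.45; limma adjusted p = 0.861). An age difference of 2-fold lay outside the interval of both genes.

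The scavenger receptors read lower on day 7 or overlapped. Cd163 encodes the receptor that takes up haemoglobin bound to haptoglobin. It read 49.2, 48.4 and 47.5 on day 7, against 58.8, 150 and 108 on day 1. The groups did not overlap, as for 19.1% of all genes with every day 7 array below every day 1 array. The day 7 arrays were nearly equal (SD 0.884) while the day 1 arrays spread 2.55-fold. The log2 change was -1.01 (SE 0.29; limma adjusted p = 0.0988), and without day 1 replicate 1, the lowest of its group, it was -1.38 with an adjusted p of 0.0465. Mrc1, the mannose receptor, read 277, 323 and 374 on day 7, against 327, 478 and 430 on day 1. These arrays overlapped (log2 change -0.33, interval -0.74 to 0.07; limma adjusted p = 0.306).

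C1qa and C1qb encode subunits of C1q, the complement protein that binds antibody and dying cells, and macrophages are its main source. C1qb read 69.9, 107 and 93.6 on day 7, against 109, 218 and 195 on day 1. Every day 7 array lay below every day 1 array, though day 7 replicate 2 and day 1 replicate 1 nearly met. It differed by -0.90 on the log2 scale (SE 0.27; limma adjusted p = 0.108). C1qa read 163, 213 and 249 on day 7, against 243, 359 and 274 on day 1, with an overlap between day 7 replicate 3 and day 1 replicate 1. Its log2 change was -0.49 (SE 0.20; adjusted p = 0.198). The subunit C1qc, which was not on the list, read 126, 178 and 166 on day 7, against 181, 309 and 253 on day 1, a log2 change of -0.64 (adjusted p = 0.137). The 3 subunits thus had the same direction, and none passed limma's test.

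Cd14 encodes the co-receptor that hands bacterial lipopolysaccharide to TLR4. It read 161, 180 and 157 on day 7, against 119, 154 and 169 on day 1. The arrays overlapped, and the log2 change was 0.18 (interval -0.16 to 0.52; limma adjusted p = 0.513).

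**Figure D2:**
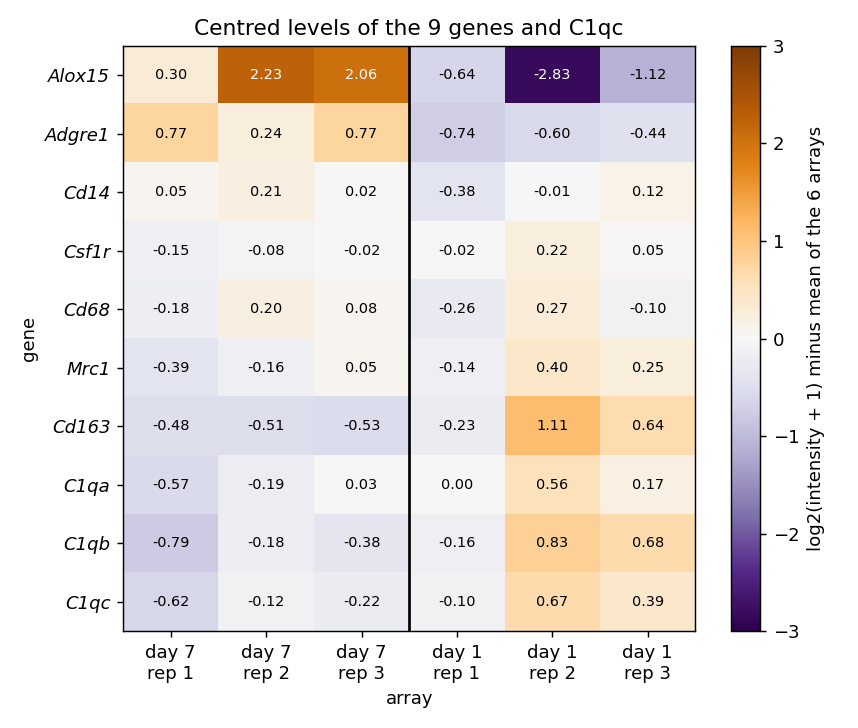
Log2(intensity + 1) of the 9 genes and C1qc (rows) on each array (columns, day 7 on the left), after subtraction of each gene's mean over the 6 arrays, as colour and number. Alox15 runs from 2.23 on day 7 replicate 2 to -2.83 on day 1 replicate 2, the array on which Cd163, C1qa, C1qb and C1qc are highest.

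Single arrays were low or high for several of the 7 genes that were not picked, as the heat map of centred levels shows. On day 1 all 7 were lowest on replicate 1, as were 27.9% of all genes. On day 7, 5 of the 7 were lowest on replicate 1, as were 3983 of the 14217 genes, and the highest array differed: Cd163 peaked on replicate 1, Cd68, C1qb and Cd14 on replicate 2, and Csf1r, Mrc1 and C1qa on replicate 3. Of the 7, 6 had their highest value of all 6 arrays on day 1 replicate 2, against 14.3% of all genes, and Cd14 was the exception. Alox15 had its lowest value on that same array. These counts describe single arrays and were not tested.

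Some erythroid genes were low on the same arrays as Alox15. Slc4a1, the red cell anion exchanger, read 45.1, 337 and 172 on day 7, against 84.9, 47.2 and 170 on day 1. Ahsp, a chaperone of alpha globin, read 33.5, 233 and 176 on day 7, against 123, 61.2 and 180 on day 1. Both were, like Alox15, lowest on replicate 1 of day 7 and on replicate 2 of day 1, a pattern of 2 of the 8 measured erythroid genes and of 11.1% of all genes. Of the 8, 6 were lowest on day 7 replicate 1 within day 7, as were 3983 of the 14217 genes. Within day 1, 3 of the 8 were lowest on replicate 2, as were 37.3% of all genes. The other 5 were lowest on day 1 replicate 1, as were 27.9% of all genes. On that array Alox15 had its highest day 1 value, 278. Between the ages 5.08% of all genes passed limma's test and 27.6% had an unadjusted p under 0.05. For the 8 erythroid genes both counts were 0, and the median log2 change was 0.02. Their summed intensity was 7037 to 13710 on day 7 and 8235 to 14910 on day 1. Most of that sum was Hbb, which read 6706, 12300 and 11829 on day 7, against 7763, 10315 and 13726 on day 1. The sum therefore says little about the other erythroid genes. None of the 8 was at or under the trp control on every array, though Rhag read only 5.14 to 7.17. The part of erythroid cells in the Alox15 values was not tested.

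**Figure D3:**
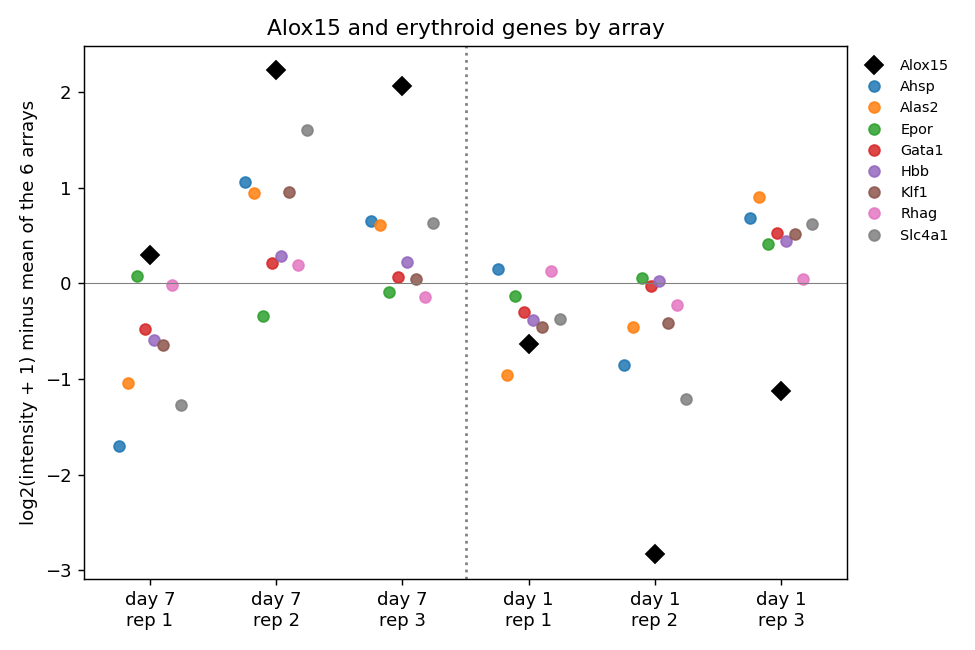
Log2(intensity + 1) minus each gene's mean over the 6 arrays (y axis) for Alox15 (black diamonds) and the 8 measured erythroid genes (coloured circles) on each array, day 7 on the left. Alox15 lies above 0 on the day 7 arrays and below 0 on the day 1 arrays, while the erythroid genes lie on both sides of 0 at both ages and, except for Epor and Rhag, are lowest on day 7 replicate 1.

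Eosinophil genes read near the background. Of the 5 measured, the granule genes Prg2 and Epx and the receptors Ccr3 and Il5ra read between 4.70 and 9.69 on all arrays. The fifth, the chemokine receptor Ccr1, which macrophages also carry, read 18.3, 19.5 and 21.7 on day 7, against 25.8, 37.2 and 40.7 on day 1 (limma adjusted p = 0.0597, log2 change -0.75). The summed intensity of the 5, in which Ccr1 was the brightest, was 42.8 to 51.8 on day 7 and 47.8 to 62.8 on day 1. The sum therefore follows Ccr1 more than the other genes. Of the 5 changes 3 were above 0 and 2 below, with a median of 0.21. Epx read 8.31, 8.36 and 9.69 on day 7, against 6.37, 6.94 and 6.23 on day 1 (log2 change 0.38, limma adjusted p = 0.0971).

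None of the other eicosanoid genes was called. Of 22 other measured genes of lipoxygenases, cyclooxygenases and their partners, 0 passed limma's test and 3 had an unadjusted p under 0.05. The shares over all genes were 5.08% and 27.6%. The median log2 change of these 22 was 0.02. Alox5, which starts leukotriene synthesis, read 11.6, 11.3 and 14.5 on day 7, against 14.4, 12.4 and 16.9 on day 1 (adjusted p = 0.471). Its activating protein Alox5ap read 31.2, 42.8 and 38.8 on day 7, against 37.6, 51.8 and 60.4 on day 1 (log2 change -0.39; adjusted p = 0.288). Alox12 read 6.87 to 11.2 and Alox12e 3.83 to 5.24 over the 6 arrays, the second at the level of the trp control. The secreted phospholipase gene Pla2g2a read 14.5, 52.7 and 44.5 on day 7, against 104, 99.6 and 99.6 on day 1 (log2 change -1.60; adjusted p = 0.0744). For the leukotriene hydrolase gene Lta4h the change was -0.52 (adjusted p = 0.127). For the cyclooxygenase gene Ptgs2, which read at most 8.82, it was 0.29 (adjusted p = 0.222).

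Of the ligands of the CSF1 receptor, Il34 rose. It read 44.2, 40.9 and 52.4 on day 7, against 26.8, 21.4 and 20.4 on day 1, a 1.96-fold difference (SE 0.15 on the log2 scale; limma adjusted p = 0.0209). The Il34 call was lost in 4 of the 6 fits that left out 1 array. Its adjusted p was 0.0937 when day 7 replicate 1 was omitted, 0.0575 for day 7 replicate 3, 0.0512 for day 1 replicate 1 and 0.064 for day 1 replicate 3. With the replicate number as a block it was 0.0753, and with a floor at the trp control 0.0569. Csf1 read 61.6, 69.9 and 62.7 on day 7, against 79.3, 101 and 68.0 on day 1 (log2 change -0.33; adjusted p = 0.259). Its 3 other probe sets had changes of the opposite sign, 0.34, 0.15 and 0.13, so no direction is given for Csf1. Of the 7 measured genes in the list of ligands and growth factors, which also holds the receptor genes Csf2ra and Csf2rb, 1 was higher and 0 lower. The median of the 7 was 0.18.

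On the pathway of Cd14, Lbp rose as well. It encodes the plasma protein that loads lipopolysaccharide onto CD14, and read 41.7, 35.4 and 26.5 on day 7, against 11.01, 11.6 and 9.56 on day 1. The fold was 2.99 (SE 0.17 on the log2 scale). The log2 change of Lbp had a limma adjusted p of 0.0134. It was 0.0679 without day 7 replicate 1 and 0.052 with a floor at the trp control. Tlr4, the receptor itself, read 10.2, 10.9 and 13.8 on day 7, against 19.4, 12.4 and 12.3 on day 1 (adjusted p = 0.415). Its partner Ly96 read 106, 99.2 and 77.5 on day 7, against 70.3, 88.0 and 86.9 on day 1 (adjusted p = 0.494). Of 17 measured genes of the pathway, 1 was higher and 0 lower, and the median log2 change was 0.16. Il1b, an inflammatory cytokine, had a change of 0.55 (adjusted p = 0.0954).

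Other complement genes went both ways. Of the proteases of the C1 complex, C1r differed by 0.28 on the log2 scale (limma adjusted p = 0.231) and C1s by -0.43 (adjusted p = 0.247), neither passing the test. Serping1, the inhibitor of these proteases, rose 1.74-fold (adjusted p = 0.0354), a call lost in 7 of the 16 alternatives. Cfd, adipsin, a protease of the alternative pathway that fat cells secrete, rose 3.92-fold (adjusted p = 0.0143), a call lost in 4 of the 16 with an adjusted p of up to 0.0833, the value without day 7 replicate 1. Cd55, which shields cells from complement, read 82.1, 131 and 109 on day 7, against 193, 185 and 231 on day 1, and fell (log2 -0.93, adjusted p = 0.0377), a call lost in 10 of the 16. C3 read 4.79 to 6.16 over the 6 arrays, close to the trp control. Of 15 measured complement genes, 2 were higher and 1 lower, with a median change of -0.0016. The adipocyte list, which shares Cfd, had 8 of 11 genes higher and a summed intensity of 3121 to 6573 on day 7, against 1648 to 1830 on day 1. That count was 1 when day 7 replicate 1 was left out and 4 when day 1 replicate 1 was, and it was 3 with a replicate block, 5 with a pseudocount of 16 and 0 with a floor at the trp control. The part of fat cells in the complement values was not tested.

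Of 26 further macrophage markers, 0 passed limma's test in either direction and 5 had an unadjusted p under 0.05. The shares over all genes were 5.08% and 27.6%. For the 26 the median log2 change was 0.03, with 14 above 0 and 12 below. Their summed intensity was 1900 to 2213 on day 7 and 1907 to 2632 on day 1. Tyrobp, an adaptor of activating receptors, read 72.8, 108 and 87.5 on day 7, against 95.1, 150 and 132 on day 1 (log2 change -0.48; adjusted p = 0.217). Mpeg1, a pore-forming protein of phagocytes, had a change of -0.46 (adjusted p = 0.219). In the other direction Ms4a7 had one of 0.43 (adjusted p = 0.138), and the efferocytosis receptor Mertk one of 0.53 (adjusted p = 0.197). Aif1, a calcium-binding protein of macrophages, had a change of -0.27 (adjusted p = 0.593). Its other, dimmer probe set had a change of 0.21 (adjusted p = 0.392), so no direction is given for Aif1. Of the 26, 18 were lowest on replicate 1 within day 7, and 16 of the 26 on replicate 1 within day 1.

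Among 11 measured genes of tissue-resident macrophages, 1 was called lower and 0 higher. Their median log2 change was 0.02, with 7 changes above 0 and 4 below. The gene that fell was F13a1, the A subunit of clotting factor XIII, which read 33.9, 66.1 and 49.7 on day 7, against 95.2, 102 and 121 on day 1. The log2 change of F13a1 was -1.12 (SE 0.23; limma adjusted p = 0.0433). That call was lost in 5 of the 6 fits without 1 array (adjusted p up to 0.122) and after quantile normalization (adjusted p = 0.0578), and its other probe set had a change of -0.49 (adjusted p = 0.312). Lyve1, a hyaluronan receptor of resident macrophages and lymphatic endothelium, read 823, 705 and 794 on day 7, against 683, 854 and 750 on day 1 (adjusted p = 0.931). The change of the folate receptor Folr2 was -0.27 (adjusted p = 0.202), that of the scavenger receptor Stab1 -0.09 (adjusted p = 0.787). In the other direction, every day 7 array lay above every day 1 array for Igf1 and Slco2b1. The change of Igf1 was 0.54 (adjusted p = 0.135), and 0.70 and 0.71 on its other probe sets. That of Slco2b1 was 0.45 (adjusted p = 0.178), and 0.04 on its other probe set. Pf4, a chemokine of platelets and some macrophages, read 248 on day 7 replicate 1, the array with the lowest Alox15 of its age, and 886 to 959 on the other 5 arrays.

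**Figure D4:**
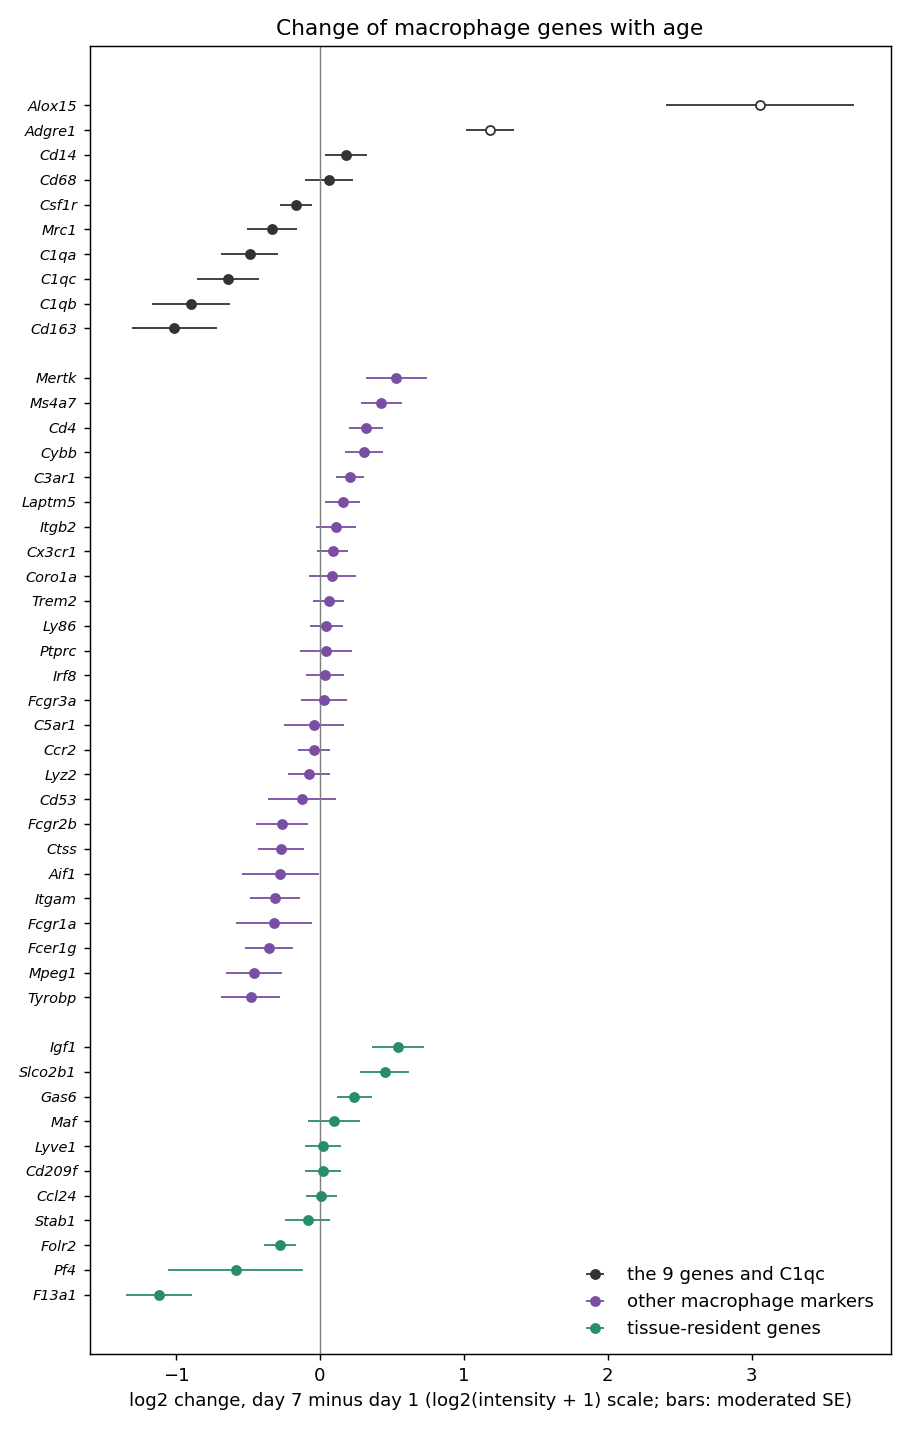
Log2 change, day 7 minus day 1, with its moderated SE (x axis) for the 9 genes and C1qc (black), 26 other macrophage markers (purple) and 11 tissue-resident macrophage genes (green). The open circles of Alox15 (3.06) and Adgre1 (1.18) were picked for their difference, and of the filled ones only F13a1 (-1.12) passed limma's test.

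The genes most like each profile were sought over the 6 arrays, by the root mean square difference of centred log2 values, among genes with a mean log2 value of at least 5. For Alox15 they were Rpl3l, Myh2, Rsad2, Gda and Gpd1, at differences of 0.75 to 0.94 on the log2 scale. Rsad2, an interferon-induced antiviral protein, read 102, 441 and 438 on day 7, against 108, 42.1 and 143 on day 1, with the same arrays low as for Alox15. Myh2, a fast muscle myosin, read 658, 1047 and 613 on day 7, against 255, 75.4 and 77.2 on day 1. The skeletal muscle list, which does not hold Myh2, had the other direction: all 11 of its measured genes had a change below 0, with a median of -0.92, and 5 passed limma's test as lower and 0 as higher. The count of 5 was 0 without day 7 replicate 1, day 7 replicate 3, day 1 replicate 1 or day 1 replicate 3, 2 without day 1 replicate 2 and 8 without day 7 replicate 2. For Adgre1 they were Cpe, Fgl2, Lipe, Lpl and Srebf1, at 0.13 to 0.19. Lipe, Lpl and Srebf1 act in the lipid metabolism of fat cells, and Fgl2 is a secreted fibrinogen-like protein. The part of fat cells in the Adgre1 values was not tested. They and the genes near Alox15 were sought for their likeness to Alox15 or Adgre1, so their difference between the ages supports nothing here. Lipe and Lpl are also among the 8 adipocyte genes called higher. For the mean of the 7 genes not picked they were Fcer1g, Ctss, Trpm4, Acd and Clec10a, at 0.05 to 0.11. Fcer1g, an immunoglobulin receptor subunit, Ctss, a lysosomal protease, and Clec10a, a lectin, are themselves genes of macrophages and other myeloid cells. Trpm4 and Acd are in none of the lists. All 5 were sought for their likeness to that mean, so they support nothing here.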

How the data were processed

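Arrays of 3 day 7 and 3 day 1 tendon pools were compared. The authors deposited an intensity for every probe set on each array, not log transformed. The tools named, per the submitters' processing notes, are MAS5 and RMA, with no step stated for either. How background was corrected and arrays were scaled is therefore unknown here. Values were taken as log2(intensity + 1) without further normalization. Of 31099 probe sets, 57 controls were left out. A platform annotation gave 20826 probe sets 1 symbol, 436 several and the other 9780 none. Of the 20826, 20758 matched RefSeq by gene identifier and 0 changed symbol. A gene was represented by its probe set of highest mean log2 value.

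Day 7 was tested against day 1 with limma 3.58.1 (lmFit and eBayes, R 4.3.3), two-sided; p-values were adjusted by Benjamini-Hochberg across the 31042 probe sets, with a threshold of 0.05. The 9 genes and the 22 lists of other genes were chosen with earlier results of these data known. Of 334 other listed genes 272 were measured. Named were the 9 genes, the 18 measured of 20 set partners such as Il34 and C1qc (C2 and Spi1 were not analysed here), up to 3 genes per list with the smallest adjusted p, and 5 nearest profiles each for Alox15, Adgre1 and the mean of the other 7. Further list genes (Lyve1, Stab1, Folr2, Pf4, the erythroid and eosinophil genes and others) were named after their values were seen. The code was tested on simulated data. The alternatives were 2 normalizations, a filter on dim probe sets, the mean of probe sets, other variance models, array weights, a replicate block, a pseudocount of 16, a floor at the trp control and arrays left out. The small number of arrays limits precision.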

Additional observations from a re-analysis of the deposited data

How the results depend on the processing

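None of the 7 macrophage genes that were not picked passed limma's test under 15 of the 16 alternatives; without day 1 replicate 1, Cd163 did (adjusted p = 0.0465), so the count ran from 0 to 1 over the fits without 1 array. For these 7 genes 110 of 112 log2 changes kept their sign, and the exceptions were the log2 change of Cd68 when day 7 replicate 2 (-0.02) or day 1 replicate 1 (-0.05) was left out. The log2 difference of Alox15 ran from 2.06 to 3.67 and that of Adgre1 from 0.78 to 1.36 over the 16.

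Over all genes the counts of calls were less stable. Against 274 higher and 448 lower, there were 538 and 897 with array weights, 25 and 8 with a replicate block, 4 and 12 with a floor at the trp control, and 182 higher with a pseudocount of 16; the cause was not tested. Without 1 array the counts ran from 4 to 271 higher and from 0 to 382 lower. They moved over 1.5 times without day 7 replicate 1 (4 and 0, with 1136 and 1869 at an unadjusted p under 0.05), day 7 replicate 3 (87 and 79), day 1 replicate 1 (26 and 37) and day 1 replicate 3 (61 and 107). The replicate numbers are not stated to pair the pools. Same-numbered arrays had correlations of their deviations from the age means, across genes, of 0.13, -0.27 and -0.09 (replicates 1, 2 and 3), so the block is no more than an alternative, and not every array correlated best with its own number. Among the 104 genes named by a set rule, no alternative reversed a called change, and the other called genes were not checked for this. Genes near the trp control of at most 4.76 have no reliable fold.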

Other observations

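Other genes of phagocytes and of antigen presentation gave the following values. Over all genes 5.08% passed limma's test and 27.6% had an unadjusted p under 0.05. These are the shares to set beside the counts in the lists below. Of 21 measured genes of lysosomes and phagocytosis, Apoe, a lipid carrier that macrophages and many other cells secrete, rose 2.91-fold (limma adjusted p = 0.0325), and Ctsz, a lysosomal protease, read 73.5, 89.4 and 78.3 on day 7, against 134, 134 and 151 on day 1, and fell (log2 -0.79, adjusted p = 0.0209). The median of the list was 0.25, with 16 of 21 changes above 0. Of 7 osteoclast genes, whose median was 0.20, 0 passed and 3 had an unadjusted p under 0.05. Among them Ctsk, a collagen-degrading protease that fibroblasts also make, had a change of 0.48 (adjusted p = 0.198). Of 14 genes of dendritic cells and class II presentation, 0 passed and 4 had an unadjusted p under 0.05. Their median was 0.26, and 12 of 14 changes were above 0. Flt3, a receptor of dendritic cell progenitors, read 13.7, 13.8 and 15.1 on day 7, against 10.2, 10.3 and 9.55 on day 1 (adjusted p = 0.0505), and Cd74, the class II chaperone, had a change of 0.40 (adjusted p = 0.164). Of 12 genes of alternative activation, 0 passed and 5 had an unadjusted p under 0.05. Their median was 0.18, with 9 changes above 0 and 3 below. Pparg had a change of 1.33 (limma adjusted p = 0.0669) and passed in 4 of the 16 alternatives. Arg1, an arginase, read 72.7, 38.8 and 45.9 on day 7, against 19.5, 27.1 and 38.0 on day 1 (adjusted p = 0.129).

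Among 12 chemokines that act on monocytes, Cxcl12 rose 1.71-fold (adjusted p = 0.0313) and none was called lower. Cxcl16 had a change of 0.72 (adjusted p = 0.0599), and Ccl6, a myeloid chemokine, had a change of -1.20 (adjusted p = 0.106). The median of the 12 was 0.16, with 9 changes above 0 and 3 below. Of 9 genes of haemoglobin and iron handling, ceruloplasmin, Cp, rose 2.03-fold (adjusted p = 0.0262). The haem oxygenase Hmox1, which breaks down the haem that CD163 brings in, read 61.3, 78.9 and 123 on day 7, against 95.8, 241 and 207 on day 1. Its log2 change was -0.99 (limma adjusted p = 0.169). Within day 1 Hmox1 was lowest on replicate 1, as were Cd163 and 27.9% of all genes. Within day 7 Hmox1 was highest on replicate 3, where Cd163 was lowest. Haptoglobin, Hp, had a change of 0.41 (adjusted p = 0.280). Of 10 mast cell genes, the tryptase Tpsb2 fell (log2 -0.77, adjusted p = 0.0338), as did Tpsab1 (log2 -1.43, adjusted p = 0.0387), and none rose. The median of the mast cell list was -0.02, with 5 changes above 0 and 5 below, and the IgE receptor gene Ms4a2 had a change of 0.35 (adjusted p = 0.164). Of 16 genes of T, B and NK cells, 0 passed and 1 had an unadjusted p under 0.05, with a summed intensity of 131 to 139 on day 7 and 124 to 138 on day 1. The calls in these lists were not firm: over the 16 alternatives the adjusted p reached 0.122 for Apoe, 0.101 for Ctsz, 0.110 for Cxcl12, 0.109 for Cp, 0.115 for Tpsb2 and 0.128 for Tpsab1.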
